A study of Schizosaccharomyces pombe with 12 samples.

Results

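Described here are the uracil-regulated genes urg1, urg2 and urg3 of the fission yeast Schizosaccharomyces pombe and the pyrimidine genes fur1, fur4, ura1, ura3, ura4 and ura5. The 9 genes were chosen by name, with earlier results of these same libraries known, so their levels in all 4 groups count as used in the choice. For these genes, levels and fold changes are therefore given as a description, with no p-value. Which of them met the call rule used for all genes is listed below, also as a description and not as a test. Of the 9, 8 were found by name among the 6936 genes of the deposited tables. No gene has the name fur1 in the tables or in the annotation used, so no value is given under that name. Whether SPAC1B3.01c, annotated as a uracil phosphoribosyltransferase and described below by its identifier, is that gene is not stated in these sources. Of the 8, 7 passed the low-count filter, and ura4 was the exception.

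The libraries were made from messenger RNA of cells in exponential growth in YES, a rich yeast-extract medium, at 30 °C. The 12 libraries form 4 groups of 3. The group ntu1_KO is h+ ade6-M216 ura4-D18 leu1-32 with ntu1 replaced by kanMX, and ntu2_KO is h+ ade6-M216 ura4-D18 leu1-32 with ntu2 replaced in the same way. The group wt_WT is h- leu1-32 ura4-D18 ade6-704, and ntu_WT is h+ leu1-32 ura4-D18 ade6-M210. All 4 groups thus carry ura4-D18 and leu1-32, and no wild type carries the ade6 allele of the knockouts. Each group is 1 strain, and both wild types have the same strain name in the labels despite their different genotypes. The labels do not say whether the 3 libraries of a group came from separate cultures, so an error or p-value may measure technical spread.

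Uridine monophosphate, the parent of all pyrimidine nucleotides, is made by one of 2 routes. In the de novo route, Ura1 starts the ring from bicarbonate, glutamine and aspartate, Ura2 closes it, Ura3 oxidises it in the mitochondrion, Ura5 adds the ribose phosphate and Ura4 removes a carboxyl group. In the salvage route, the permease Fur4 imports uracil and a phosphoribosyltransferase converts it in 1 step. The urg genes were named for their induction by uracil in fission yeast, and the urg1 promoter is widely used there as a fast inducible switch. Cells with ura4-D18 lack the last de novo enzyme and live on uracil from the medium.

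The 9 libraries of ntu1_KO, ntu2_KO and ntu_WT held 3177147 to 7556338 estimated counts each, and those of wt_WT 11308010 to 11782294. The share of counts on ribosomal RNA genes was 0.682% to 6.67% in ntu1_KO, 1.44% to 3.66% in ntu2_KO, 0.371% to 0.699% in wt_WT and 2.40% to 2.67% in ntu_WT. Both deleted genes were lower in their own knockout but not at 0, with ntu1 at 3.90 ± 0.600 TPM in ntu1_KO and 34.5 ± 0.604 TPM in ntu_WT, and ntu2 at 16.0 ± 2.86 TPM in ntu2_KO and 75.0 ± 6.74 TPM in ntu_WT (SD, n = 3 each). The remaining signal was 46.1 to 70.0 counts of ntu1 per ntu1_KO library and 149 to 315 counts of ntu2 per ntu2_KO library, and its source was not tested. TPM, transcripts per 1e+06 transcripts, is adjusted for gene length and is used here for levels. Fold changes come from edgeR on the counts, with their standard error (SE).

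The ura4 gene (SPCC330.05c, chromosome III), which encodes orotidine 5'-phosphate decarboxylase, had 0 counts in all 12 libraries. With 3 counts over a group as the limit, this allows up to 0.166 CPM (counts per 1e+06 counts) in ntu1_KO, 0.198 CPM in ntu2_KO, 0.0869 CPM in wt_WT and 0.144 CPM in ntu_WT. These limits cover counting error only. Every library therefore matched the ura4-D18 label that all groups share.

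The 3 urg genes were the members that varied most. All 3 were lowest in ntu_WT and highest on average in wt_WT, with both knockouts between them. The order of the group means, from high to low, was wt_WT, ntu1_KO, ntu2_KO, ntu_WT for each of the 3 genes, in TPM and in CPM. The size of the steps differed between genes, being larger for urg1 and urg2 than for urg3.

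The urg1 gene (SPAC1002.19, chromosome I) encodes a protein annotated as GTP cyclohydrolase II. Its level was 64.1, 47.4 and 42.7 TPM in ntu1_KO, 34.5, 42.0 and 36.6 TPM in ntu2_KO, 95.5, 86.9 and 104 TPM in wt_WT, and 31.8, 31.1 and 26.0 TPM in ntu_WT. No group overlapped another, although the lowest ntu1_KO library stood just above the highest ntu2_KO library. The log2 fold change was 1.62 ± 0.13 (SE) in wt_WT against ntu_WT, 0.77 ± 0.14 in ntu1_KO against ntu_WT and 0.32 ± 0.14 in ntu2_KO against ntu_WT. Against wt_WT it was -0.86 ± 0.12 in ntu1_KO and -1.30 ± 0.13 in ntu2_KO. Between the knockouts, ntu1_KO against ntu2_KO, it was 0.45 ± 0.14.

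Within ntu1_KO, replicate 1 was the highest library for urg1, and it was also the library with the most ribosomal RNA (6.67% of counts, against 0.682% and 1.94% in replicates 2 and 3). Without that library, the log2 fold change of urg1 was 0.58 in ntu1_KO against ntu_WT, -1.04 in ntu1_KO against wt_WT and 0.26 in ntu1_KO against ntu2_KO. The same library was also the highest of ntu1_KO for urg2 and urg3. Without it, the log2 fold change in ntu1_KO against ntu_WT was 0.87 for urg2 and 0.50 for urg3. The part of ribosomal RNA in these values was not tested.

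The urg2 gene (SPAC1002.17c, chromosome I) encodes a putative uracil phosphoribosyltransferase. It stood at 201, 134 and 152 TPM in ntu1_KO, 150.3, 185 and 140.3 TPM in ntu2_KO, 239.8, 234 and 249 TPM in wt_WT, and 92.9, 76.6 and 63.0 TPM in ntu_WT. The knockouts overlapped each other, while every knockout library lay above all of ntu_WT and below all of wt_WT. The log2 fold change was 1.57 ± 0.17 (SE) in wt_WT against ntu_WT, 1.05 ± 0.20 in ntu1_KO against ntu_WT and 1.01 ± 0.20 in ntu2_KO against ntu_WT. It was -0.51 ± 0.16 in ntu1_KO and -0.55 ± 0.16 in ntu2_KO against wt_WT. Between the knockouts it was 0.05 ± 0.19.

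The urg3 gene (SPAC1002.18, chromosome I) encodes a protein that the annotation describes by its gene name alone. Levels were 150.0, 117 and 131 TPM in ntu1_KO, 143, 135 and 111 TPM in ntu2_KO, 152, 141 and 144 TPM in wt_WT, and 90.7, 87.8 and 78.9 TPM in ntu_WT. The ntu_WT libraries were the 3 lowest, and in TPM the other 3 groups overlapped. Its log2 fold change against ntu_WT was 0.71 ± 0.08 (SE) in wt_WT, 0.60 ± 0.09 in ntu1_KO and 0.54 ± 0.09 in ntu2_KO. Against wt_WT the values were -0.11 ± 0.08 in ntu1_KO and -0.16 ± 0.08 in ntu2_KO, and between the knockouts 0.05 ± 0.09.

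**Figure D1:**
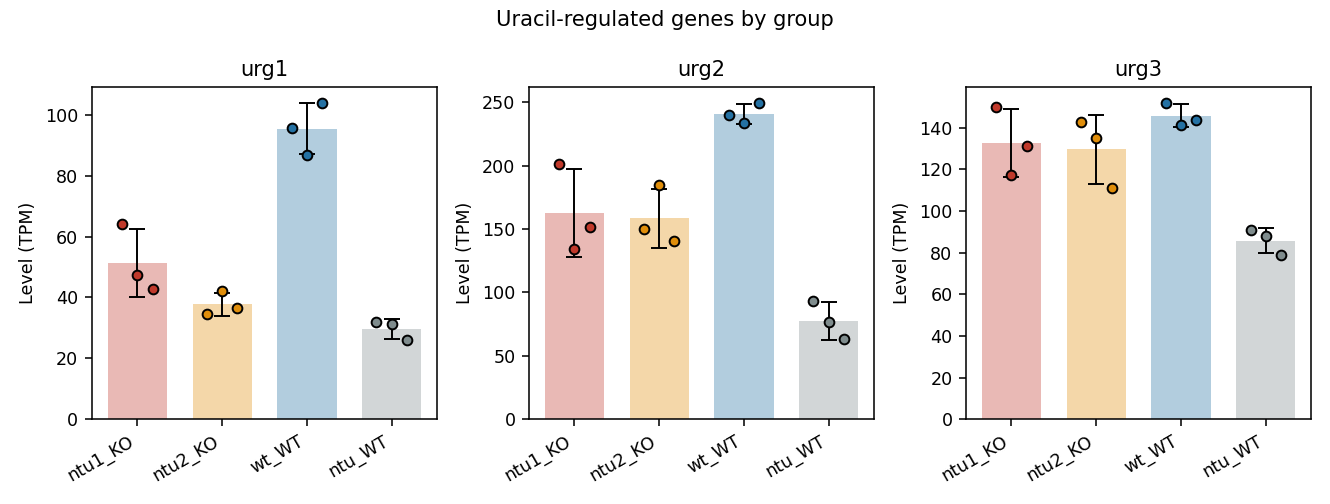
Levels of urg1, urg2 and urg3 (TPM, linear axis from 0) in the 4 groups; points are the 3 libraries, bars the mean and error bars the SD. The ntu_WT libraries are the lowest in each panel, and wt_WT stands clear of the knockouts for urg1 and urg2 but not for urg3.

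The call rule was an edgeR quasi-likelihood adjusted p under 0.05 over all genes with at least a 2-fold change. By that rule, 2 of the 7 fitted members were called in wt_WT against ntu_WT, urg1 and urg2, where 1.03% of all fitted genes were called. Without the fold minimum the members called were urg1, urg2 and urg3, against 8.24% of all genes. In ntu1_KO against ntu_WT no member met the full rule (0.224% of all genes did), and urg1 and urg3 passed without the fold minimum (0.740% of all genes). In ntu2_KO against ntu_WT no member met the full rule (0.155% of all genes), and urg3 passed without the fold minimum (0.758%). Both knockout comparisons share the ntu_WT libraries. The members were chosen with these comparisons known, and nothing is read from the counts.

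Against wt_WT, urg1 met the full rule in ntu2_KO (0.424% of all genes did), and in ntu1_KO it passed without the fold minimum (5.87% of all genes) but not with it (1.0%). In ntu2_KO without the fold minimum, urg1 and fur4 passed (3.78% of all genes). Between the knockouts no member was called with or without the fold minimum (0.103% of all genes each way). The ntu1_KO call of urg1 against wt_WT was made when ntu1_KO replicate 1 was left out. For urg2 against ntu_WT the call depended on the method. DESeq2 called it in both knockouts, as did edgeR with all 12 libraries in the fit. Limma on log2(TPM + 1) called it in ntu1_KO, as did edgeR without ntu1_KO replicate 2. Fitting the compared groups alone called it in ntu2_KO. These calls of members are a description too, and nothing is read from them.

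Counting groups whose CPM did not overlap gave the 3 urg genes in each knockout against ntu_WT, where 13.9% of all genes in ntu1_KO and 13.3% in ntu2_KO were also separated. In wt_WT against ntu_WT the separated members were the 3 urg genes and fur4 (35.3% of all genes). Against wt_WT they were urg1, urg2, fur4 and ura1 in ntu1_KO (32.2% of all genes) and urg1, urg2, urg3 and fur4 in ntu2_KO (21.5%). Between the knockouts urg1 alone was separated (10.3%). The wt_WT libraries are deeper and hold less ribosomal RNA than most others, and they differ from ntu_WT in mating type and ade6 allele. What these differences contribute to the urg levels cannot be told apart.

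The balance among the urg genes differed between groups as well. The ratio of urg3 to urg1, in TPM, was 2.34, 2.47 and 3.07 in ntu1_KO, 4.13, 3.21 and 3.04 in ntu2_KO, 1.59, 1.63 and 1.39 in wt_WT, and 2.85, 2.82 and 3.04 in ntu_WT. All wt_WT libraries lay below the 9 others. The ratio of urg2 to urg1 was 3.14, 2.83 and 3.56 in ntu1_KO, 4.35, 4.39 and 3.83 in ntu2_KO, 2.51, 2.69 and 2.40 in wt_WT, and 2.92, 2.46 and 2.42 in ntu_WT. Here the ntu2_KO libraries lay above the 9 others, while the wild types overlapped. The ratio of urg2 to urg3 averaged 1.22 ± 0.109 in ntu1_KO, 1.23 ± 0.159 in ntu2_KO, 1.66 ± 0.0771 in wt_WT and 0.898 ± 0.115 in ntu_WT (SD, n = 3 each). A ratio shows that differences were unequal and not which gene moved.

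**Figure D2:**
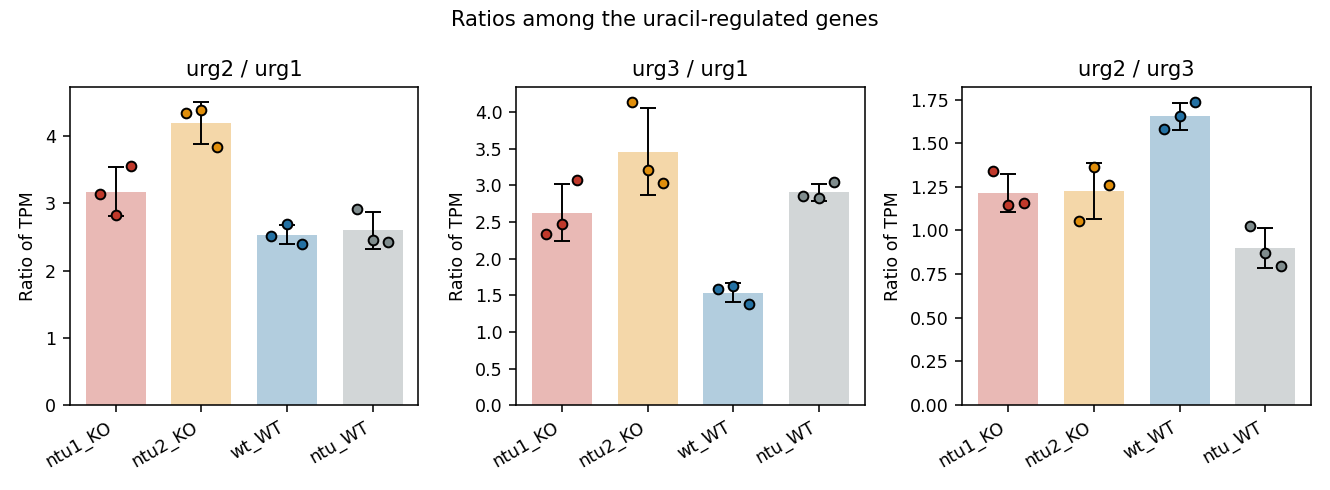
Ratios of TPM between the urg genes in the 4 groups (linear axis from 0); points are libraries, bars the mean and error bars the SD. The wt_WT libraries are lowest for urg3 over urg1, and the ntu2_KO libraries are highest for urg2 over urg1.

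Added together, the 3 urg genes made up 347 ± 61.1 TPM in ntu1_KO, 326 ± 36.9 TPM in ntu2_KO, 482 ± 18.1 TPM in wt_WT and 193 ± 23.9 TPM in ntu_WT (SD, n = 3 each). Over the 12 libraries the highest urg1 level was 3.99 times the lowest, in TPM, and the same span was 3.96 times for urg2 and 1.92 times for urg3. The SD of log2(CPM + 1) over the 12 libraries was 0.65 for urg1, 0.62 for urg2 and 0.30 for urg3, against a median of 0.13 over 5899 genes. By that SD, urg1 ranked 94 and urg2 98 from the most variable gene, and urg3 ranked 765.

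The urg genes lie side by side on chromosome I in assembly ASM294v3. The order of protein-coding genes there is med6, itt1, tna1, urg2, urg3, urg1, toe1, uck2 and fur4. Thus the stretch holds a nicotinic acid transporter gene (tna1) on one side and, on the other, a gene annotated as a uracil phosphoribosyltransferase (uck2) and the uracil permease gene fur4. The tna1 gene, directly beside urg2, had 953, 883 and 905 TPM in ntu1_KO, 841, 1023 and 867 TPM in ntu2_KO, 31.5, 38.0 and 14.9 TPM in wt_WT, and 18.9, 19.1 and 15.0 TPM in ntu_WT. Both knockouts were far above both wild types, and edgeR called tna1 higher in each knockout against ntu_WT. The log2 fold change was 5.68 ± 0.10 for ntu1_KO (edgeR adjusted p 1.06e-15) and 5.65 ± 0.10 for ntu2_KO (edgeR adjusted p 1.15e-15). The rule that chose the members also names tna1, with earlier results known, so these p-values are no independent test.

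The level of tna1 did not order the groups as urg2 did. In TPM, tna1 stood at 4.73 to 6.58 times urg2 in ntu1_KO, 5.54 to 6.18 times in ntu2_KO, 0.0599 to 0.162 times in wt_WT and 0.204 to 0.249 times in ntu_WT. The group with the most urg2, wt_WT, thus had little tna1. In wt_WT against ntu_WT, tna1 was not called (log2 fold change 0.57 ± 0.32, edgeR adjusted p 0.321). No 31-base sequence of tna1 or urg2 occurs elsewhere in the genome of assembly ASM294v3.

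Further along the stretch, uck2 (SPAC1399.04c) was at 57.4, 54.4 and 60.1 TPM in ntu1_KO, 57.9, 60.5 and 50.4 TPM in ntu2_KO, 80.1, 71.2 and 85.3 TPM in wt_WT, and 53.5, 49.9 and 43.1 TPM in ntu_WT. All wt_WT libraries lay above the 9 others. EdgeR's adjusted p over all genes was under 0.05 for uck2 in wt_WT against ntu_WT (log2 fold change 0.58 ± 0.10, adjusted p 0.00115, below the 2-fold minimum), and it stayed so under all 12 alternatives (adjusted p 7.50e-05 to 0.0132). It was also lower in each knockout against wt_WT, at -0.40 ± 0.10 for ntu1_KO (edgeR adjusted p 0.0283; 0.0080 to 0.140 over the alternatives) and -0.41 ± 0.11 for ntu2_KO (edgeR adjusted p 0.0363; 0.0246 to 0.184). Each passed under 7 of 12 alternatives; the result was lost without ntu1_KO replicate 1, 2 or 3 or wt_WT replicate 1 or 3 in the first comparison, and without ntu2_KO replicate 1 or 3 or wt_WT replicate 1 or 3, or with the compared groups alone, in the second. Against ntu_WT, uck2 had 0.19 ± 0.12 for ntu1_KO (edgeR adjusted p 0.940) and 0.18 ± 0.12 for ntu2_KO (edgeR adjusted p 0.699).

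Between urg1 and uck2, toe1 was expressed at 13.8 ± 1.42 TPM in ntu1_KO, 13.1 ± 3.46 TPM in ntu2_KO, 16.2 ± 0.657 TPM in wt_WT and 13.5 ± 0.140 TPM in ntu_WT (SD, n = 3 each). Its log2 fold change in wt_WT against ntu_WT was 0.18 ± 0.14 (edgeR adjusted p 0.442). On the far side of tna1, itt1 (a ubiquitin ligase gene) had 0.21 ± 0.07 (edgeR adjusted p 0.0960) and med6 (a Mediator subunit gene) -0.07 ± 0.09 (edgeR adjusted p 0.664) in the same comparison. None of the 3 passed the test in any of the 6 comparisons. The nearest neighbours of the urg genes on either side, tna1 and toe1, did not pass in wt_WT against ntu_WT. For tna1 the wt_WT libraries ran from 14.9 to 38.0 TPM, so not passing does not show equal levels.

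**Figure D3:**
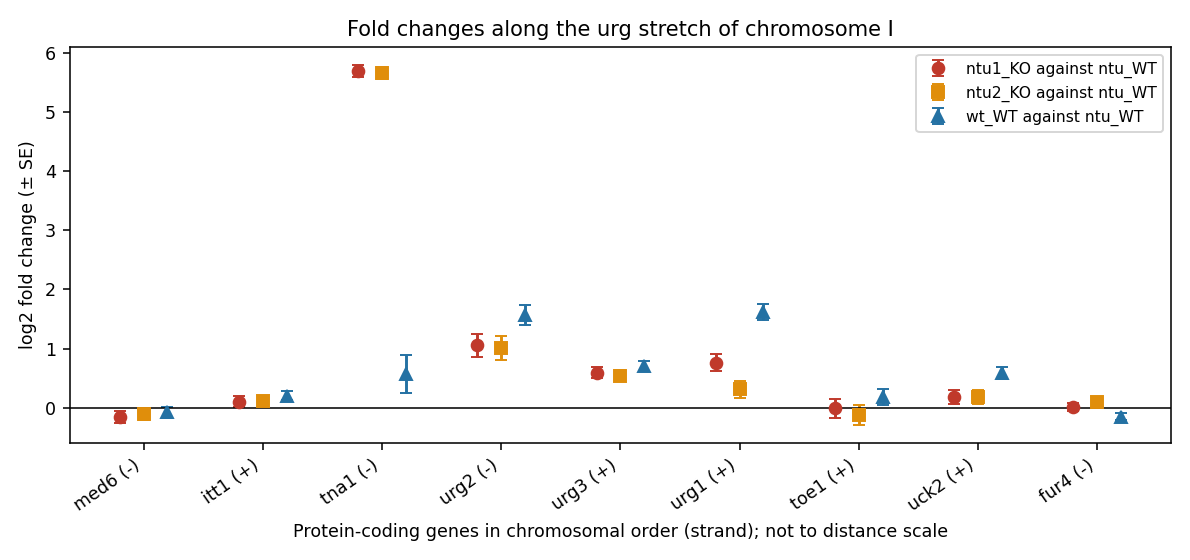
Log2 fold changes (points) with SE (bars) of protein-coding genes in chromosomal order along the urg stretch, for each knockout and for wt_WT, all against the shared ntu_WT libraries. The tna1 values of the knockouts, near 5.7, exceed all others, and the urg genes are above 0 in all 3 comparisons while fur4 lies near 0.

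The fur4 gene (SPAC1399.03, chromosome I) encodes the plasma membrane uracil permease. Its level was 105, 112 and 107 TPM in ntu1_KO, 118, 128 and 101 TPM in ntu2_KO, 106, 99.2 and 95.0 TPM in wt_WT, and 109, 103 and 103 TPM in ntu_WT. In TPM all groups overlapped. Its log2 fold changes were 0.02 ± 0.07 (SE) in ntu1_KO and 0.10 ± 0.07 in ntu2_KO against ntu_WT, and -0.15 ± 0.06 in wt_WT against ntu_WT. Against wt_WT they were 0.17 ± 0.06 in ntu1_KO and 0.25 ± 0.06 in ntu2_KO. The permease gene averaged slightly less in wt_WT than in ntu_WT, while the urg genes averaged more. This fur4 difference did not pass the call rule, even without the fold minimum.

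The de novo genes differed little between groups. The ura1 gene (SPAC22G7.06c, chromosome I), for the enzyme of the first 2 steps, had 201, 197 and 195 TPM in ntu1_KO, 219.7, 233 and 188 TPM in ntu2_KO, 220.1, 216 and 226 TPM in wt_WT, and 207, 192 and 183 TPM in ntu_WT. The ntu2_KO libraries spanned nearly the whole range, and wt_WT lay above ntu1_KO and ntu_WT. The log2 fold change of ura1 against ntu_WT was 0.01 ± 0.06 in ntu1_KO, 0.10 ± 0.06 in ntu2_KO and 0.10 ± 0.06 in wt_WT. Separated in TPM, the wild types overlapped in CPM.

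The ura3 gene (SPAC57A10.12c, chromosome I), for mitochondrial dihydroorotate dehydrogenase, was the most abundant member per length. It had 629, 620.3 and 599 TPM in ntu1_KO, 663, 699 and 603 TPM in ntu2_KO, 674, 639.5 and 637 TPM in wt_WT, and 659, 634 and 593 TPM in ntu_WT. The highest library was 1.18 times the lowest. In TPM every pair of groups overlapped except ntu1_KO and wt_WT, and that pair overlapped in CPM (log2 fold change -0.02 ± 0.05). Against ntu_WT its log2 fold change was -0.05 ± 0.06 in ntu1_KO, 0.02 ± 0.06 in ntu2_KO and -0.03 ± 0.05 in wt_WT.

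The ura5 gene (SPBC725.15, chromosome II), for orotate phosphoribosyltransferase, had 271, 299 and 311 TPM in ntu1_KO, 302, 276 and 301 TPM in ntu2_KO, 310.1, 303 and 290.1 TPM in wt_WT, and 306, 299 and 303 TPM in ntu_WT. All 4 groups overlapped. Its log2 fold change against ntu_WT was -0.06 ± 0.06 in ntu1_KO, -0.08 ± 0.06 in ntu2_KO and -0.10 ± 0.06 in wt_WT. The SD of log2(CPM + 1) over the 12 libraries was 0.05 for ura3, 0.08 for ura5, 0.08 for ura1 and 0.12 for fur4, against the median of 0.13 over all fitted genes.

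**Figure D4:**
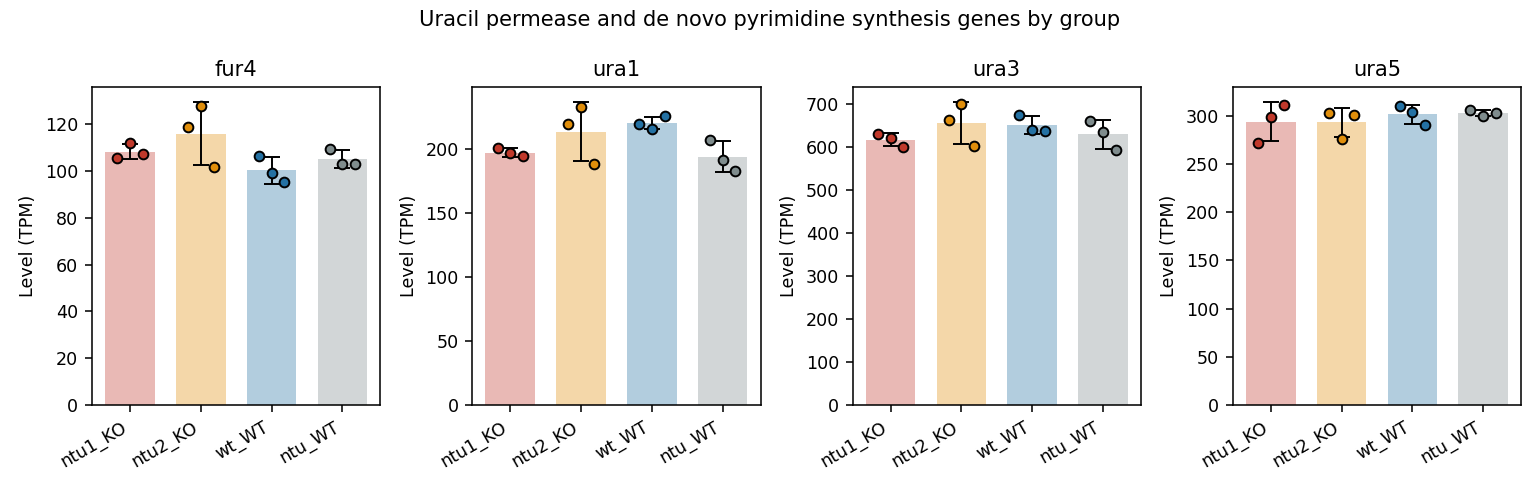
Levels of fur4, ura1, ura3 and ura5 (TPM, linear axis from 0) in the 4 groups; points are libraries, bars the mean and error bars the SD. Group means lie close together in each panel, between 100.2 and 116 TPM for fur4 and between 616 and 655 TPM for ura3.

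Per length, the order of the member levels in ntu_WT was ura3 (629 ± 33.2 TPM), ura5 (303 ± 3.42 TPM), ura1 (194 ± 12.1 TPM), fur4 (105 ± 3.78 TPM), urg3 (85.8 ± 6.14 TPM), urg2 (77.5 ± 15.0 TPM) and urg1 (29.7 ± 3.20 TPM; SD, n = 3 each). Of the neighbours in that order, urg3 and urg2 did not differ beyond their spread. In wt_WT, urg2 (241 ± 7.92 TPM) stood above ura1 (221 ± 4.83 TPM), and urg1 (95.4 ± 8.44 TPM) overlapped fur4 (100.2 ± 5.80 TPM). In both knockouts urg2 and urg3 exceeded fur4 on average, with urg2 at 162 ± 34.8 TPM in ntu1_KO and 158 ± 23.2 TPM in ntu2_KO and urg3 at 133 ± 16.5 and 129.6 ± 16.5 TPM. In ntu2_KO, fur4 and urg3 overlapped.

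A list of 20 other pyrimidine genes was examined beside the members. It was built from gene symbols and from words in the annotated product, and so it also holds uck2, the uracil DNA glycosylase genes ung1 and thp1 and the riboflavin gene rib7. All 20 were fitted. EdgeR called 0 of the 20 in each of the 6 comparisons at the 2-fold minimum, as did DESeq2 and limma. Of all fitted genes, edgeR called 0.103% to 1.03% by the same rule. At such shares, 0 of 20 does not set the list apart from all genes. At an unadjusted p under 0.05, edgeR found 2 of the 20 in ntu1_KO against ntu_WT (5.89% of all fitted genes), 2 in ntu2_KO against ntu_WT (9.06%) and 5 in ntu1_KO against ntu2_KO (6.66%). With wt_WT, it found 7 in wt_WT against ntu_WT (23.3% of all genes), 7 in ntu1_KO against wt_WT (20.1%) and 5 in ntu2_KO against wt_WT (16.8%).

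Without the fold minimum, no gene of the list passed in ntu1_KO against ntu_WT (0.740% of all genes did), in ntu2_KO against ntu_WT (0.758%) or between the knockouts (0.103%). The median log2 fold change of the list was 0.01 in each knockout against ntu_WT, beside a median of 0.00 over all fitted genes. The largest values there were those of rib7 (-0.40 ± 0.43), urk1 (0.22 ± 0.07) and uck2 (0.19 ± 0.12) in ntu1_KO, with edgeR adjusted p of 0.985, 0.291 and 0.940. In ntu2_KO they were those of cdd1, the cytidine deaminase gene (-0.39 ± 0.23), cdc22, for the large ribonucleotide reductase subunit (0.28 ± 0.10), and urk1 (0.20 ± 0.07), with edgeR adjusted p of 0.655, 0.319 and 0.290. Between the knockouts, ntu1_KO against ntu2_KO, they were rib7 (-0.52 ± 0.44), cdd1 (0.39 ± 0.23) and cdc22 (-0.27 ± 0.10), with edgeR adjusted p of 0.856, 0.770 and 0.665.

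In wt_WT against ntu_WT, 3 of the 20 passed without the fold minimum, where 8.24% of all genes did. Higher were uck2, given above, and urk1, annotated as a uridine kinase and uracil phosphoribosyltransferase, at 98.4 CPM in wt_WT and 80.4 CPM in ntu_WT (log2 fold change 0.29 ± 0.06, edgeR adjusted p 0.00755). Lower was dut1, for the enzyme that hydrolyses dUTP. Its levels were 133, 124 and 123 TPM in wt_WT and 154, 159 and 167 TPM in ntu_WT, which did not overlap (log2 fold change -0.44 ± 0.09, edgeR adjusted p 0.00282). The urk1 result was lost without wt_WT replicate 1 (edgeR adjusted p 0.0580; range over 12 alternatives 0.00315 to 0.0580). The list's largest value in this comparison, 0.69 ± 0.33, was that of rib7 and did not pass (edgeR adjusted p 0.217; 3.39 CPM in wt_WT and 2.11 CPM in ntu_WT). The list's median was 0.06, beside 0.00 over all genes.

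Against wt_WT, 3 of the 20 passed without the fold minimum in ntu1_KO, where 5.87% of all genes did, and 3 in ntu2_KO, where 3.78% did. The dut1 gene was higher in both, at 0.40 ± 0.09 for ntu1_KO (edgeR adjusted p 0.00995) and 0.59 ± 0.09 for ntu2_KO (edgeR adjusted p 0.000399), and uck2 was lower in both. The dut1 result held under 12 of 12 alternatives in ntu2_KO and 8 of 12 in ntu1_KO, where it was lost without ntu1_KO replicate 3, wt_WT replicate 2 or wt_WT replicate 3 and under limma (edgeR or limma adjusted p up to 0.0672). In ntu1_KO the CTP synthase gene cts1 was lower, at -0.17 ± 0.05 (edgeR adjusted p 0.0478, and 0.00944 to 0.174 over the alternatives). This cts1 result held under 4 of 12 alternatives. It was lost with DESeq2 size factors in edgeR, without the low-count filter, and whichever library of ntu1_KO or wt_WT was left out. In ntu2_KO the uridine ribohydrolase gene urh1 was lower, at -0.53 ± 0.13 (edgeR adjusted p 0.0267; 0.0180 to 0.116), which held under 8 of 12 and was lost without ntu2_KO replicate 1 or 2 or wt_WT replicate 1 or 3. The rib7 gene had -1.09 ± 0.36 in ntu1_KO and -0.57 ± 0.35 in ntu2_KO against wt_WT (edgeR adjusted p 0.0802 and 0.431). Thus dut1 was lower in wt_WT than in each of the other 3 groups. These 3 comparisons, like those of uck2 with wt_WT, share the same wt_WT libraries. The wt_WT libraries differ from the other groups in depth, mating type and ade6 allele. What these differences contribute to dut1 and uck2 cannot be told apart. The list's median log2 fold change was -0.06 in each knockout against wt_WT, beside 0.00 over all genes.

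**Figure D5:**
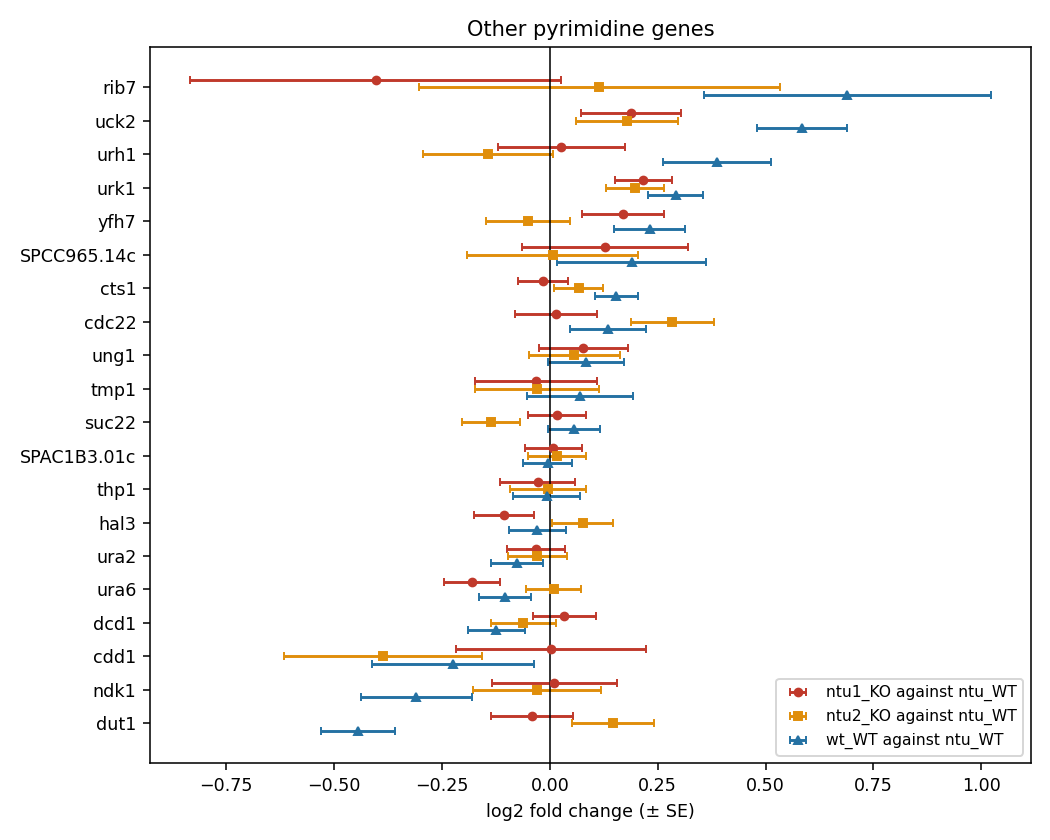
Log2 fold changes (points) with SE (bars) of the 20 other pyrimidine genes for each knockout and for wt_WT, all against the shared ntu_WT libraries. Most points lie within 0.3 of 0, uck2 and dut1 stand furthest apart among well-expressed genes in wt_WT, and rib7 has the widest bars.

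Besides urg2, 3 genes of the table carry the annotation uracil phosphoribosyltransferase, and they differed in pattern. Of these, uck2 and urk1, given above, passed without the fold minimum as higher in wt_WT against ntu_WT. The third, SPAC1B3.01c, stood at 114 ± 4.80 TPM in ntu1_KO, 117 ± 8.38 TPM in ntu2_KO, 119 ± 0.688 TPM in wt_WT and 112 ± 2.52 TPM in ntu_WT (SD, n = 3 each). Its log2 fold changes against ntu_WT were 0.01 ± 0.07 in ntu1_KO, 0.02 ± 0.07 in ntu2_KO and -0.01 ± 0.06 in wt_WT (edgeR adjusted p 0.999, 0.969 and 0.971). The dihydroorotase gene ura2, the de novo step between ura1 and ura3, was equally even, with group means of 73.4 to 75.0 TPM and log2 fold changes against ntu_WT of -0.03 ± 0.07, -0.03 ± 0.07 and -0.08 ± 0.06 in ntu1_KO, ntu2_KO and wt_WT (edgeR adjusted p 0.999, 0.941 and 0.474).

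The genes with patterns most like each urg gene were found by the root mean square difference of centred log2(CPM + 1) over the 12 libraries, among 5898 other genes. For urg1 they were SPAC57A7.05 at 0.27, urg2 at 0.31 and the non-coding RNA gene SPNCRNA.953 at 0.32. For urg2 they were SPAC26H5.09c, annotated as an oxidoreductase, at 0.23, SPAC1039.02, annotated as a phosphatase, at 0.27 and SPNCRNA.1626 at 0.28, followed by urg1 and urg3 in ranks 4 and 5. For urg3 they were SPNCRNA.1606 at 0.11, SPBPB7E8.01 at 0.11 and the serine synthesis gene ser3 at 0.12. The measure counts amplitude, and urg3, with its smaller range, had urg2 in rank 3466 and urg1 in rank 5309. In this measure uck2 ranked 35 for urg1, 38 for urg2 and 41 for urg3, while fur4 ranked 4860, 3973 and 3277 and ura5 4074, 4250 and 3795. The 12 libraries share groups and depth differences, and the ranks are a description.

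The annotation of assembly ASM294v3 places non-coding RNAs on the opposite strand of urg1, urg3, fur4, ura1, ura3 and ura5. None of these is a row of the deposited tables. As no source used here says whether strand was used in counting, reads of a member and of its antisense partner cannot be told apart. Of the 31-base sequences of the members, none occurred elsewhere in that genome except 0.116% of those of ura1.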

How the data were processed

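Stranded mRNA libraries were prepared from total RNA, per the labels' protocols. Estimated counts and TPM, deposited by the authors as separate tables, cover 6936 genes in 12 libraries. The submitters' processing notes name Salmon 1.9.0 and the build ASM294v2; no source used here gives the annotation, the gene summarisation or the strand setting. Of the non-zero estimated counts deposited by the authors, 91.2% are not whole. The deposited TPM sum to 1e+06 per library, so they do not show depth.

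Estimated counts were rounded and fitted with edgeR 4.0.16 in R 4.3.3 (quasi-likelihood F-test, robust, filterByExpr at a minimum count of 10, TMM). The 3 comparisons among ntu1_KO, ntu2_KO and ntu_WT used 9 libraries and 5808 genes, and the 3 with wt_WT used 12 libraries and 5899 genes. CPM use TMM-scaled library sizes. The SE is the log2 fold change divided by the square root of F. P-values were adjusted by Benjamini-Hochberg over all fitted genes. The code was tested on simulated data. Alternatives were DESeq2 1.42.0, limma 3.58.1 on log2(TPM + 1), other filters, scalings, thresholds and fits, leaving out each library in turn, and the replicate number as a block.

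The members and lists were chosen with earlier results of these data known. Named genes are the members, called list genes and the 3 list genes with the largest change per comparison, up to 3 neighbours on each side of the urg genes, the 3 genes most like each urg gene, and the deleted genes. List genes that passed without the fold minimum, and SPAC1B3.01c and ura2, were named after their values were seen. Of the symbols listed, 12 were found by name and 5 were not, and 8 genes came from product text. Names and gene order are from RefSeq's ASM294v3, to which 6695 identifiers matched by locus tag; as the builds differ, no coordinates or sequences are printed. Within groups, chi-square per degree of freedom between replicates was 3.09 to 67.2, above sampling noise, so none were merged. Correlations of same-numbered libraries' deviations ran from -0.17 to 0.15, and those of differently numbered libraries from -0.24 to 0.18. No pairing by number was thus detected, which does not show that there was none.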

Additional observations from a re-analysis of the deposited data

How the results depend on the processing

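Member fold changes were recomputed 525 times under the alternatives, and 518 moved by less than the replicate SD of the gene. The other 7, all from limma on log2(TPM + 1) in comparisons with wt_WT, concerned fur4, ura1, ura3 and ura5. The sign changed 24 times, for values of at most 0.0515 in size on the log2 scale. The calls of urg2 in the knockouts and of urg1 in ntu1_KO against wt_WT changed as reported above.

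Of the 20 other genes, edgeR called 0 in each comparison (0.103% to 1.03% of all genes), and 0 to 0 with any library left out. Without the fold minimum the counts were 3 in wt_WT against ntu_WT, 3 in ntu1_KO against wt_WT and 3 in ntu2_KO against wt_WT. Fitting the compared groups alone called 1, rib7, in ntu1_KO against wt_WT (edgeR adjusted p 0.0392).

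Over all genes, 13, 9, 6, 61, 59 and 25 were called in ntu1_KO against ntu_WT, ntu2_KO against ntu_WT, ntu1_KO against ntu2_KO, wt_WT against ntu_WT, ntu1_KO against wt_WT and ntu2_KO against wt_WT. Without the fold minimum the counts were 43, 44, 6, 486, 346 and 223 in the same order. At an adjusted p under 0.01, the last 3 comparisons had 38, 31 and 15. DESeq2 called 15 in ntu2_KO against ntu_WT and 12 between the knockouts. Leaving out ntu2_KO replicate 3 gave 22 in ntu2_KO against ntu_WT, 18 between the knockouts and 38 in ntu2_KO against wt_WT. In ntu1_KO against wt_WT the count was 39 without ntu1_KO replicate 3, 37 without wt_WT replicate 1 and 38 without wt_WT replicate 3. The cause of these shifts was not tested.

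With the replicate block, edgeR called 13, 9, 6, 63, 60 and 24 genes in that order, and no call of a member or listed gene changed. No scaling moved the median of all genes by over 0.1 on the log2 scale. In limma on log2(TPM + 1) that median was 0.0881 in wt_WT against ntu_WT, beside 0.0034 in the main fit. It was -0.0704 in ntu1_KO and -0.0644 in ntu2_KO against wt_WT, beside -0.0001 and -0.0027. TPM thus put wt_WT slightly above the other groups for the median gene. At these depths ura4 cannot be given below the limits stated.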
